A study of Mus musculus with 8 samples.

Results

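The genes described here encode the amino acid transporters of 6 solute carrier families. They are the 43 protein-coding genes of the GENCODE M21 annotation (mm10) whose symbols start with Slc1a, Slc3a, Slc7a, Slc36a, Slc38a or Slc43a, out of 21938 protein-coding genes. Chromatin immunoprecipitation followed by sequencing (ChIP-seq) mapped the glucocorticoid receptor (GR) in livers of male C57BL/6J mice on regular chow, taken at ZT12, the time at which the lights go off. The control mice (ctrl.) had their food restricted to the night during the last week, the calorically restricted mice (cal. res.) had their food intake lowered in steps and then held low, and the CORT mice were night-fed and received corticosterone by daily injection for a week. Each group had 2 GR libraries, and 1 further list held FOXO1 peaks from 2 cal. res. libraries that were merged before peak calling, so it carries no replicate spread. The lists give no expression, and a peak near a gene start does not say which gene it acts on.

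Amino acid transporters move amino acids across the cell membrane and out of lysosomes, and in the liver they bring in alanine, glutamine and arginine for glucose and urea synthesis. GR is a hormone-activated transcription factor that raises the use of amino acids by the liver during fasting. FOXO1 is a forkhead transcription factor that insulin keeps out of the nucleus, and it is known for its part in the fasting response of hepatocytes. The glucocorticoid response element (GRE), the sequence GR dimers bind, is made of inverted repeats of a short core 3 bases apart.

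Overlapping regions of the 6 GR lists were merged into 51428 sites, and 235 of them were centred within 50 kb of a member's start. The 235 sites made 252 gene and site pairs, because 16 sites lay in the window of more than 1 member. A start of a member was the nearest protein-coding start at 139 of the 235 sites, and the summit lay at or within the member gene itself at 114. By place, 120 summits were intronic, 55 lay within 1 kb of a transcript start, 51 were intergenic, 5 were in untranslated regions and 4 in coding exons. The sites closest to the edge of the window were a Slc7a2 site at 49.978 kb with a peak in 1 library, just inside, and a Slc7a4 site at 50.05 kb with a peak in 4 libraries, just outside.

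The lists differed in size, which touches every count below. The numbers of distinct regions were 36231 and 12456 for ctrl. replicates 1 and 2, 22704 and 18744 for cal. res., and 29470 and 39133 for CORT, and read totals were not analysed here. Sample names followed 2 styles, with ctrl. replicate 2 and both cal. res. libraries in one and ctrl. replicate 1 and both CORT libraries in the other. Nothing in the labels ties a style to a batch, and cal. res. against CORT cannot be told apart from one style against the other. As a check of the tissue, 8 of 8 hepatocyte genes (Alb, Apoa1, Ass1, Cps1, Cyp2e1, Pck1, Tat and Ttr) had at least 1 site held by all 3 groups, with a median of 5.5, against 4 of 10 genes of other liver cells (Cd3e, Des, Pecam1 and Stab2), with a median of 0. The share over all protein-coding genes was 37.9%, so the genes of other liver cells stood near it.

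The sequences of 5 sites are shown because they carry the main patterns: the highest-ranked site of the Slc3a, Slc43a, Slc7a and Slc38a families, and a site next to the Slc3a1 start at which a peak was found in the CORT libraries alone. Each is 200 bp of mm10 around the summit, on the plus strand. Capitals mark matches to the motifs searched, which are spelled out with the motif counts. The positions are chr17:85044521-85044720 for the Slc3a1 intron, chr2:84851121-84851320 for the Slc43a1 intron, chr7:35168123-35168322 for the region upstream of Slc7a10, chr8:95833558-95833757 for the region 19.8 kb downstream of the Slc38a7 start, and chr17:85027236-85027435 for the region upstream of Slc3a1.
Slc3a1 intron: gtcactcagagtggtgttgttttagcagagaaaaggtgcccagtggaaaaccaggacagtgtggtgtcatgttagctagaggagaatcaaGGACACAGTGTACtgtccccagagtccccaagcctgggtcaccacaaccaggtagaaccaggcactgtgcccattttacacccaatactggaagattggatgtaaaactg
Slc43a1 intron: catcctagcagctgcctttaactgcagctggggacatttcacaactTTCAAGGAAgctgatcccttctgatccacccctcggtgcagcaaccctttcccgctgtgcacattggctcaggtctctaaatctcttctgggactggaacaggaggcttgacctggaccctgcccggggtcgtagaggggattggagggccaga
Slc7a10 upstream: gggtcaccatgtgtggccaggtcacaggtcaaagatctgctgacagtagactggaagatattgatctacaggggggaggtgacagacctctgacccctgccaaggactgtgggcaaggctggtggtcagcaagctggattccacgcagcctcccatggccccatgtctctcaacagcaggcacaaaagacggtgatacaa
Slc38a7 downstream: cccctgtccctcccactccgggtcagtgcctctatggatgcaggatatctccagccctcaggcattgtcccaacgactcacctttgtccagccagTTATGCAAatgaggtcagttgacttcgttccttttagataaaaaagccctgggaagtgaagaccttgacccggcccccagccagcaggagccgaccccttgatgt
Slc3a1 upstream, CORT alone: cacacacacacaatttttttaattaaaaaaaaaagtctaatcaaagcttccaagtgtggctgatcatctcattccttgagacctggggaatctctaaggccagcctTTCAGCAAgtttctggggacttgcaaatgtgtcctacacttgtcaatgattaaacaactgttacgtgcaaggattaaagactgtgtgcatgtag
The Slc3a1 intron matches the full GRE palindrome at bases 91 to 103 of its window. The Slc43a1 intron holds a STAT match, and the Slc38a7 site and the upstream Slc3a1 site each hold a C/EBP match. The Slc7a10 window has none of the 7 motifs searched. The Slc38a7 window crosses an exon of the non-coding gene Gm31805 and lies nearer the start of Sap18b than that of Slc38a7.

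GR sites were spread unevenly over the 43 genes. A site counts as held by a group where each of the group's libraries had a peak. The held counts given below by family use all regions, and means with lists of equal size follow after the families. Of the 43 members, 21 had a site held by ctrl. (48.8%, against 48.6% of all protein-coding genes), 21 a site held by cal. res. (48.8%, against 47.2%) and 27 a site held by CORT (62.8%, against 60.9%). A site held by all 3 groups was found at 17 members (39.5%, against 37.9%). The members therefore stood close to the background on each count of genes. The mean number of sites per gene was 5.86 over the members and 4.35 over all protein-coding genes, with medians of 4 and 3.

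No GR site was found within 50 kb of 11 members, which is 25.6% of them, against 26.8% of all protein-coding genes. These were the glutamate carriers Slc1a1, Slc1a3 and Slc1a6, the cationic amino acid carriers Slc7a1 and Slc7a3, the cystine and glutamate exchanger Slc7a11, the neutral amino acid carrier Slc7a8, the cystine carrier subunit Slc7a9, and Slc7a12, Slc7a13 and Slc7a14. Slc1a2, the main glutamate carrier of brain, had 1 site, found in ctrl. replicate 1 alone.

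**Figure D1:**
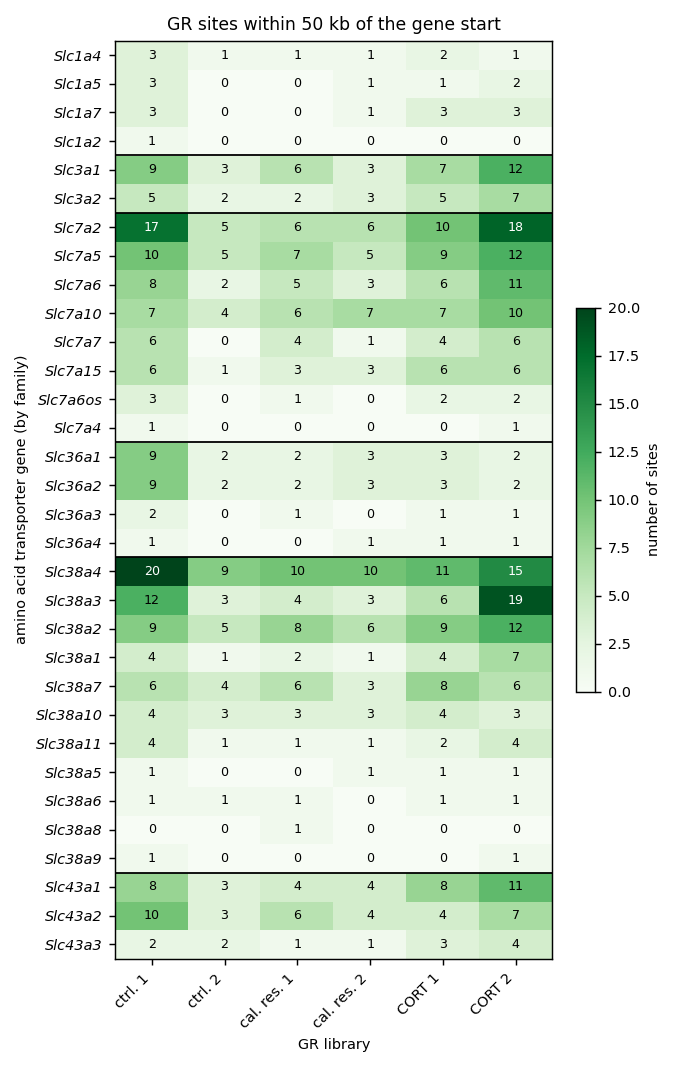
Number of GR sites within 50 kb of the start of each of the 32 members with a site (rows, grouped by family) in each of the 6 GR libraries (columns); the colour and the printed number give the count. Slc38a4 has the highest count of any library, 20 in ctrl. replicate 1, and ctrl. replicate 2 has fewer sites than replicate 1 at most genes.

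The Slc1a family, which carries glutamate and small neutral amino acids, had 13 sites at 4 of its 7 genes. A single one was held by ctrl. and by cal. res., and 4 were held by CORT. That site lay at the start of Slc1a4, a carrier of alanine, serine and cysteine, at chr11:20332635-20333466, and it was on a FOXO1 row. Its fold enrichment, ranked within each list and given as a percentile, was 92.9 and 19.9 for ctrl., 64.2 and 9.86 for cal. res., and 76.1 and 91.6 for CORT. The ctrl. values overlapped those of both other groups, and both cal. res. values lay below both CORT values. At Slc1a5, the glutamine carrier of dividing cells, and at Slc1a7, the held sites, 1 and 2 in number, were held by CORT alone. All of them lay nearer the start of another gene. The Slc1a5 site was at the Ap2s1 start, and the Slc1a7 sites were at the start and in an intron of Cpt2. Each also had a peak in ctrl. replicate 1, and those at the Ap2s1 and Cpt2 starts had one in cal. res. replicate 2.

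The Slc3a genes encode the heavy subunits that bring the light chains of the Slc7a family to the membrane. Slc3a1, the partner of the cystine carrier, had 14 sites, of which 13 were nearest to its own start, and Slc3a2, the partner of most other light chains, had 7. The family held 5 sites in ctrl., 5 in cal. res. and 11 in CORT. The leading Slc3a1 site, the intronic one with the palindrome, spanned chr17:85044248-85045861, 16.7 kb into the gene. Its percentiles were 99.4 and 97.5 for ctrl., 99.2 and 98.7 for cal. res., and 97.3 and 99.0 for CORT, so all 6 libraries ranked it near the top and the groups overlapped. The fold enrichment itself ran from 14.1 in ctrl. replicate 2 to 48.6 in cal. res. replicate 1, and it is comparable only within a list. A further intronic site 23.9 kb from the start, also on a FOXO1 row, had percentiles from 87.4 to 99.0. At the Slc3a2 start a weaker site was found in all libraries but ctrl. replicate 2, with percentiles from 7.18 in cal. res. replicate 2 to 66.3 in CORT replicate 2.

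The Slc7a family, the light chains and cationic amino acid carriers, had 78 sites at 8 of its 16 genes, of which 17 were held by ctrl., 23 by cal. res. and 38 by CORT. Slc7a6os, a neighbour of Slc7a6 that shares its name and is no transporter, had 3 of the gene and site pairs. Slc7a2, the hepatic carrier of arginine and lysine, had the most sites of any member, 24, and 19 of them were nearest to its own start. Its counts were 17 and 5 for ctrl., 6 and 6 for cal. res., and 10 and 18 for CORT, so the ctrl. libraries spanned most of the range. All 3 groups held 5 Slc7a2 sites, including one at the start with percentiles of 90.7 and 70.9 for ctrl., 80.8 and 79.2 for cal. res., and 94.5 and 82.4 for CORT. An intronic Slc7a2 site 13.9 kb from the start, on a FOXO1 row and holding a GRE palindrome, had percentiles from 73.7 in ctrl. replicate 2 to 99.2 in CORT replicate 2.

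Slc7a5, which imports leucine and other large neutral amino acids, had 16 sites. Its highest-ranked site, with percentiles from 95.6 to 98.5, lay 37.3 kb upstream at the start of Car5a, a mitochondrial carbonic anhydrase gene, and 7 of the 16 sites were nearest to the Slc7a5 start itself. Slc7a10, a carrier of small neutral amino acids, had 11 sites, of which 4 were nearest to its start and others lay nearer Cebpa, which encodes a hepatocyte transcription factor. The leading site of the family, chr7:35167688-35168600, lay 18.2 kb upstream of Slc7a10, with percentiles of 99.5 and 96.0 for ctrl., 97.4 and 97.9 for cal. res., and 97.9 and 99.1 for CORT. Slc7a6 had 12 sites and Slc7a7, the basolateral carrier of cationic amino acids, had 7, but 1 at each gene was nearest to its own start. No Slc7a7 site was held by ctrl., 1 was held by cal. res. and 4 by CORT. Peaks were found at 6 and 0 of its sites for ctrl., 4 and 1 for cal. res., and 4 and 6 for CORT. With lists of equal size, no group held a Slc7a7 site.

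The Slc36a carriers, proton-coupled transporters of small amino acids, had 12 sites, with 2 held by ctrl., 2 by cal. res. and 3 by CORT. Slc36a1 and Slc36a2 are neighbours and shared their windows. The leading site, in an intron of Slc36a1 at chr11:55217308-55218139, was on no FOXO1 row and had percentiles of 93.7 and 54.5 for ctrl., 89.5 and 68.1 for cal. res., and 93.4 and 80.8 for CORT.

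The Slc38a family, sodium-coupled carriers of alanine and glutamine, had sites at all 11 genes, 82 in total, with 26 held by ctrl., 24 by cal. res. and 37 by CORT. Slc38a4, a carrier that the liver is known to express strongly, had 23 sites, all nearest to its own start. Of them 9 were held by ctrl., 9 by cal. res. and 11 by CORT, and 8 by all 3 groups. Slc38a2, which is induced when amino acids are scarce, had 14 sites, all nearest to its own start, with 5, 5 and 8 held. Slc38a3, the glutamine carrier of hepatocytes around the central vein, had 20 sites, with 3, 3 and 5 held, and 8 nearest to its own start. Counts at Slc38a3 were 12 and 3 for ctrl., 4 and 3 for cal. res., and 6 and 19 for CORT. The lysosomal glutamine carrier Slc38a7 had 8 sites, and its leading one, shown above, had percentiles of 97.3 and 78.8 for ctrl., 92.2 and 93.3 for cal. res., and 98.3 and 96.8 for CORT. At the lysosomal arginine sensor Slc38a9, 1 site was found, in ctrl. replicate 1 and CORT replicate 2, and no group held it.

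The Slc43a family had 29 sites at its 3 genes, with 8 held by ctrl., 7 by cal. res. and 13 by CORT, and all 3 genes had a FOXO1 row. Slc43a1, a carrier of large neutral amino acids in liver, had 12 sites and 3, 3 and 8 held. Its intronic site at chr2:84849856-84851830 had the highest mean percentile of all member sites, 98.8, with 99.0 and 99.0 for ctrl., 98.2 and 97.6 for cal. res., and 99.9 and 99.4 for CORT. The groups did not overlap there, although all 6 values lay within a narrow range at the top of the lists, and with lists of equal size ctrl. and CORT overlapped. Slc43a2, a related carrier, had 11 sites, 1 of them nearest to its own start, and Slc43a3, which carries purine bases rather than amino acids, had 6.

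**Figure D2:**
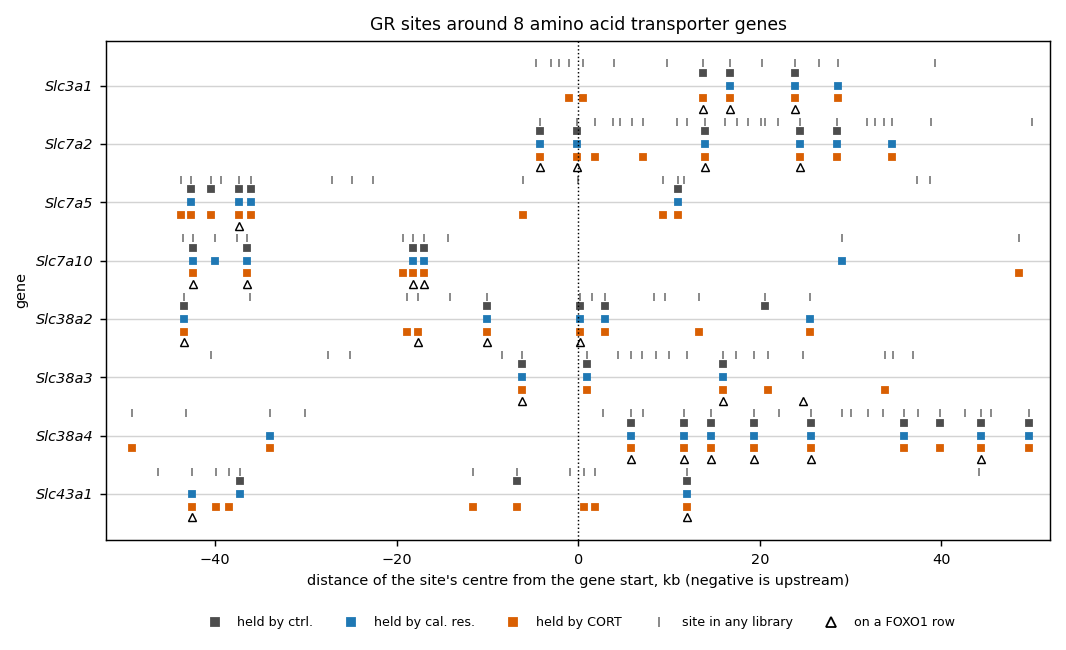
GR sites around 8 members, by the distance of the site's centre from the gene start in kb (negative is upstream). Grey ticks mark sites in any library, squares sites held by both libraries of ctrl., cal. res. or CORT, and triangles sites on a FOXO1 row. Most held Slc38a4 sites run through the gene up to 49.7 kb from its start, with 2 more upstream at -33.9 and -49.2 kb, and those assigned to Slc7a5 cluster about 40 kb upstream, where Car5a and Banp start.

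Of the 235 member sites, 59 were held by ctrl. (25.1%, against 21.4% of all sites), 62 by cal. res. (26.4%, against 27.9%), 106 by CORT (45.1%, against 43.7%) and 45 by all 3 groups (19.1%, against 15.7%). Those 45 were the sites with a peak in all 6 libraries, and 83 sites had a peak in 1 library alone, of which 31 came from ctrl. replicate 1 and 39 from CORT replicate 2, the 2 largest lists. When every library was reduced to its 12456 regions with the smallest p-values, 93 member sites remained, of which 48 were held by ctrl. (51.6%, against 36.03% of all 21414 sites on that footing), 42 by cal. res. (45.2%, against 42.5%) and 53 by CORT (57.0%, against 42.2%). Ctrl. thus held more member sites than cal. res. there, and fewer sites than cal. res. over the whole genome. The lead of CORT in held sites was therefore smaller on an equal footing. By family, the mean held sites per gene on that footing are given in the order ctrl., cal. res. and CORT. They were 0.143, 0 and 0.429 in Slc1a, 2.5, 1.5 and 2.5 in Slc3a, and 1, 0.938 and 1.06 in Slc7a. In Slc36a they were 1, 1 and 0.5, in Slc38a 1.91, 1.73 and 2, and in Slc43a 1, 1 and 2. Over all 43 members they were 1.16, 1.02 and 1.28, against 0.716, 0.713 and 0.868 over all protein-coding genes.

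**Figure D3:**
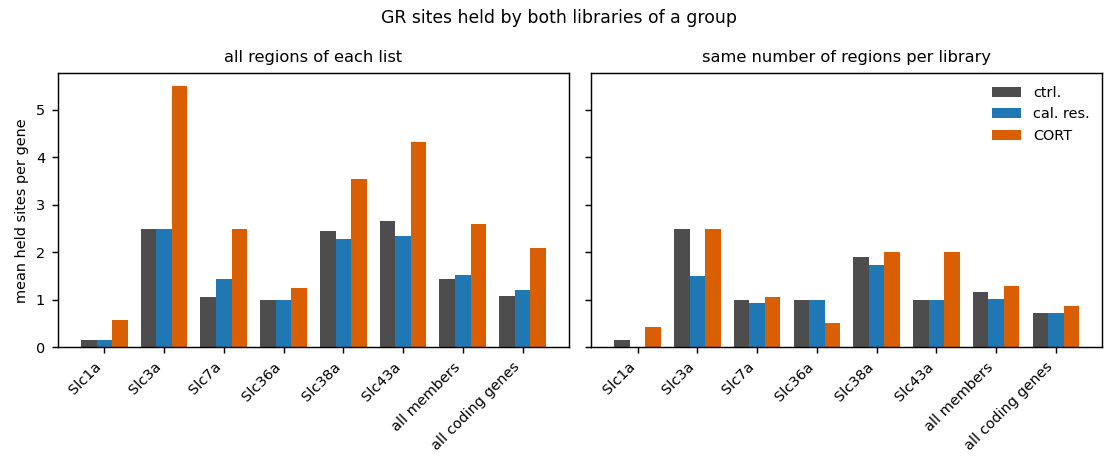
Mean number of GR sites per gene held by both libraries of ctrl., cal. res. and CORT (bars) in each family, over the 43 members and over all protein-coding genes; left, all regions, and right, the same number of regions per library. Over the members the CORT mean is 2.60 on the left and 1.28 on the right, against 1.44 and 1.16 for ctrl. Over all protein-coding genes the CORT mean is 2.09 on the left and 0.868 on the right, against 1.09 and 0.716 for ctrl.

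Few member sites were held by cal. res. and not by ctrl. Their number was 14 (5.96%, against 11.5% of all sites). Ctrl. replicate 1 had a peak at all 14, and ctrl. replicate 2, the smallest list, at none. None of the 235 member sites was held by cal. res. with no peak in either ctrl. library, which allows a share of up to 1.28%, against 0.842% of all sites. These 14 sites lay near 13 members, with 2 each at Slc7a10 and Slc7a15. The one at the Slc3a2 start has been described, and an intronic Slc3a1 site 28.6 kb from the start had a percentile of 59.5 for ctrl. replicate 1, 59.7 and 56.0 for cal. res., and 63.2 and 63.4 for CORT.

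CORT held 52 member sites that ctrl. did not (22.1%, against 24.3% of all sites), and 41 of them had a peak in ctrl. replicate 1. The remaining 11 had no peak in either ctrl. library (4.68%, against 4.28%). With the same number of regions per library, 4 sites were held by cal. res. and not by ctrl. (4.30%, against 16.0% of all sites on that footing) and 12 by CORT and not by ctrl. (12.9%, against 15.2%). The sites of the 11 that were nearest to a member's start were weak. At Slc43a1, sites 0.671 and 1.88 kb from the start had percentiles of 21.2 and 16.8, and of 33.0 and 11.8, in CORT replicates 1 and 2. The site 1.0 kb upstream of Slc3a1 shown above had percentiles of 9.65 and 15.7. A site 18.9 kb upstream of Slc38a2 ranked higher, at 26.6 and 63.8. The site 19.3 kb upstream of Slc7a10 had percentiles of 13.5 and 26.0, and the one 25.0 kb downstream of the Slc43a3 start, nearer to Prg2, had 35.8 and 30.8. None of these 6 sites was on a FOXO1 row or held by CORT on an equal footing.

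At the 45 sites with a peak in all 6 libraries, each library gave a percentile, a rank within its own list, so that it also depends on how long the list is. Both cal. res. libraries ranked above both ctrl. libraries at 1 site (2.22%, against 11.5% of all 8095 such sites) and below both at 8 (17.8%, against 20.6%). Both CORT libraries ranked above both ctrl. libraries at 7 sites (15.6%, against 26.6%) and below both at 2 (4.44%, against 5.2%). With lists of equal size, 33 member sites had a peak in all 6 libraries, and the CORT counts turned to 4 above (12.1%, against 18.4% of all 4835 such sites) and 9 below (27.3%, against 19.98%). The cal. res. counts were then 1 above (3.03%, against 22.3%) and 8 below (24.2%, against 20.1%). The comparisons with ctrl. share the ctrl. libraries, and the sites named next were chosen after their values were seen.

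The single site above ctrl. in cal. res. lay in an intron of Slc38a4, 49.7 kb from its start, at chr15:97005322-97007243. Its percentiles were 72.3 and 48.7 for ctrl., 91.9 and 92.0 for cal. res., and 84.5 and 97.2 for CORT, and it was on no FOXO1 row. The sites below ctrl. in cal. res. included the one at the Slc38a2 start, chr15:96698580-96700467, on a FOXO1 row, with 92.7 and 90.5 for ctrl., 50.1 and 51.5 for cal. res., and 96.6 and 72.4 for CORT. Within Slc38a2, the intronic site 2.95 kb from the start had 92.2 and 89.5 for ctrl., 89.0 and 91.7 for cal. res., and 94.6 and 94.7 for CORT. The cal. res. values were thus far below ctrl. at the start and overlapped them at its neighbour. The Slc38a3 start site, chr9:107666310-107670787, had 78.5 and 85.7 for ctrl., 43.9 and 60.8 for cal. res., and 78.6 and 87.5 for CORT.

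Of the 8 sites below ctrl. in cal. res., 4 kept a peak in all 6 libraries with lists of equal size, and all 4, the Slc38a2 start among them, still lay below. Besides the 2 start sites given above, the sites were assigned to Slc36a1, Slc38a3, Slc38a10, Slc43a1, Slc7a10 and Slc7a5. The widest gap was at the Slc7a5 site 42.7 kb upstream, at the start of Banp, with 71.7 and 82.7 in ctrl. and 26.5 and 8.63 in cal. res. Of the 7 sites above ctrl. in CORT, 3 were at Slc38a2, 2 at Slc38a4, 1 at Slc43a1 and 1 at Slc3a2, the last at the start of another gene. With lists of equal size 5 of the 7 kept a peak in all 6 libraries, and 3 of them still lay above ctrl., the 2 at Slc38a4 and the Slc38a2 site 43.5 kb upstream. The Slc38a2 site 10.1 kb upstream had 65.6 and 49.9 for ctrl., 25.9 and 65.6 for cal. res., and 86.0 and 93.1 for CORT. Both CORT values lay below ctrl. at a Slc7a2 intronic site, with 98.1 and 96.8 in ctrl. and 78.4 and 95.6 in CORT, and at a site 36.4 kb upstream of Slc7a10 and nearer to Cebpa, with 93.9 and 91.5 in ctrl. and 69.8 and 56.9 in CORT.

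**Figure D4:**
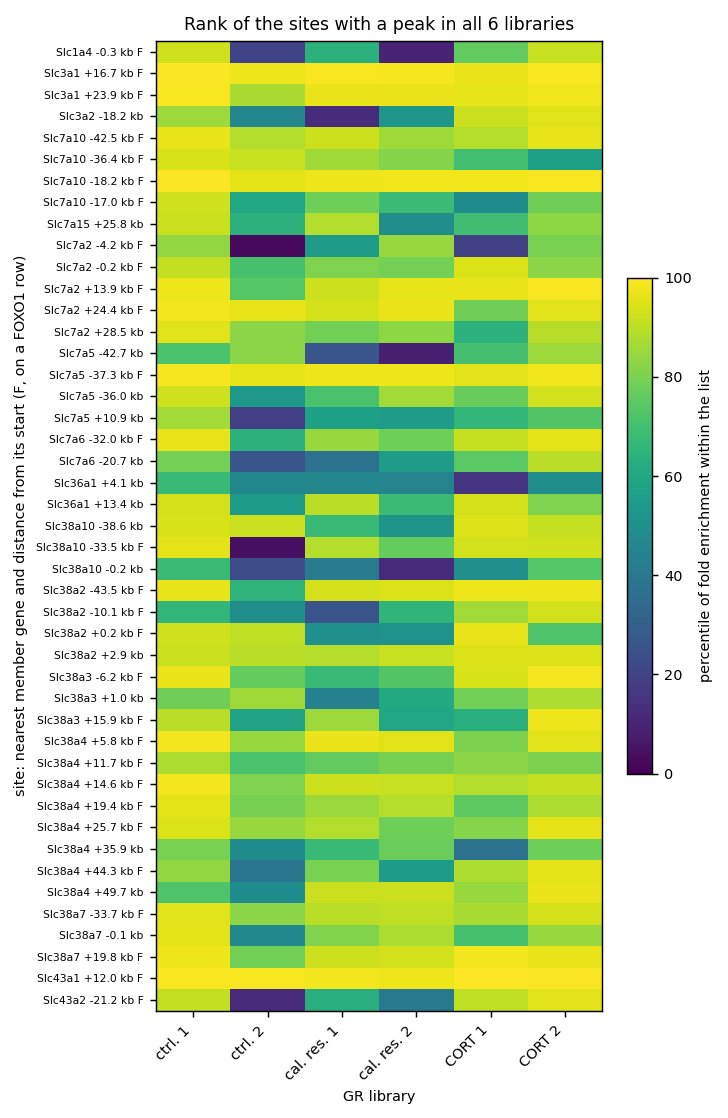
Percentile of the fold enrichment within each library's own list (colour, 0 to 100) at the 45 member sites with a peak in all 6 GR libraries (columns). Rows give the nearest member and the distance from its start, and F marks sites on a FOXO1 row. The Slc3a1 site at 16.7 kb and the Slc43a1 site at 11.99 kb are near the top of all 6 lists, and ctrl. replicate 2 ranks many sites lower than ctrl. replicate 1.

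FOXO1 rows lay near 17 of the 43 members (39.5%, against 33.3% of all protein-coding genes). Of the 8346 rows, 44 were centred within 50 kb of a member (0.527%). Slc38a4 had 8 of them, Slc38a2 and Slc7a2 had 5 each, and Slc7a10 had 4. A GR site lay under 43 of the 44 rows (97.7%, against 93.6% of all rows), a site held by cal. res. under 38 (86.4%, against 76.6% of all rows), and a site held by all 3 groups under 34 (77.3%, against 56.8%). Seen from GR, 38 of the 235 member sites were on a FOXO1 row (16.2%, against 13.9% of all sites), and 29 of the 45 held by all 3 groups were (64.4%, against 50.7%). The row with the highest fold enrichment, 21.0, was 42.5 kb upstream of Slc7a10 and nearer to Cebpa.

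In the 29 sites on a FOXO1 row, the median percentile was 96.0 and 78.8 for ctrl., 88.6 and 84.4 for cal. res., and 88.7 and 95.7 for CORT. In the 16 sites off the rows it was 85.9 and 51.1, 67.3 and 57.9, and 72.6 and 86.5. Member sites on a row thus had the higher median in every library, and the same held for the 8095 sites of the whole genome. Of the 9 sites on a row that were not held by all 3 groups, the one at the Slc36a1 start had peaks in ctrl. replicate 1 and CORT replicate 1 alone, with percentiles of 26.3 and 8.86.

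Motifs were searched on both strands in 200 bp around each summit, as exact letters. The GR half-site AGAACA was found at 51 of the 235 member sites (21.7%, exact 95% interval 16.6 to 27.5, against 18.4% of all sites). The GRE palindrome (GNACA, 3 bases, TGTNC), which can overlap the half-site, was found at 5 (2.13%, against 1.89%). FOX letters (TGTTTAC or TATTTAC) were found at 23 sites (9.79%, against 8.72%), and at 11 of the 38 sites on a FOXO1 row (28.9%, against 19.6% of all sites on a row). C/EBP letters (TTGCNNAA) were found at 39 (16.6%, against 15.1%), STAT letters (TTCNNNGAA) at 14 (5.96%, against 8.16%), HNF4 letters (CAAAGTCCA) at 2 (0.851%, against 1.47%), and the ATF4 element (TGATGNAA), a motif known from amino acid response genes, at 8 (3.4%, against 4.13%). All 7 shares of all sites lay within the exact 95% intervals of the member shares.

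The share of a library's regions that lay near the 43 genes was compared between groups with exact permutation tests over libraries, two-sided, in which 2 libraries against 2 cannot go below p = 0.333. It was 0.491% and 0.562% for ctrl., 0.449% and 0.464% for cal. res., and 0.468% and 0.475% for CORT. The exact (Clopper-Pearson) 95% intervals, which cover counting error only, ran from 0.366 to 0.545% in cal. res. replicate 1 and from 0.438 to 0.710% in ctrl. replicate 2, so the libraries overlapped. The mean was 0.527% ± 0.05 (SD, n = 2) in ctrl., 0.457% ± 0.0105 in cal. res. and 0.472% ± 0.00497 in CORT. The libraries of both treated groups lay below both ctrl. libraries, with differences of the means of -0.07 percentage points for cal. res. and -0.05 for CORT, each at the smallest p of 0.333 (exact permutation test). Against the ctrl. library of the same name style alone the differences were -0.11 and -0.02 points. The spread of the 3 means had p = 0.0667 (exact permutation test), the smallest over 15 groupings. On an equal footing the difference was -0.09 points for cal. res. (p = 0.333, exact permutation test) and 0 for CORT (p = 1, exact permutation test), and the spread of the means had p = 0.267. The lower share in CORT was thus not found with lists of equal size.

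The number of members with a region was 31 and 21 for ctrl., 25 and 25 for cal. res., and 28 and 30 for CORT, and the ctrl. libraries spanned the treated ones (p = 1 for both, exact permutation test). Against the ctrl. library of its own name style the mean of cal. res. was higher by 4 genes and that of CORT lower by 2. The share of these regions on a FOXO1 row was 21.3% and 50% for ctrl., 38.2% and 40.2% for cal. res., and 26.1% and 19.4% for CORT, next to 19.02%, 36.9%, 28.9%, 32.6%, 22.0% and 17.3% of the whole lists in the same order. It was 16.5 percentage points higher in cal. res. than in CORT (p = 0.333, exact permutation test), and the ctrl. libraries lay on either side. Against the ctrl. library of the same name style it was lower by 10.8 points in cal. res. and higher by 1.37 in CORT. With lists of equal size it was 50% and 50% for ctrl., 66% and 50.8% for cal. res., and 46.9% and 43.1% for CORT, with no overlap between groups and p = 0.0667 for the spread of the 3 means (exact permutation test, the smallest possible). Cal. res. replicate 2, with 63 regions near the genes on that footing, stood barely above ctrl. The share of the whole lists was not counted on that footing, so whether the order is particular to these genes was not tested. With all regions the share of the whole lists was also higher in cal. res. than in CORT. The FOXO1 list came from cal. res. livers, so the same overlap in ctrl. or CORT livers was not measured.

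The mean percentile at the 45 shared sites was 90.3 and 64.7 for ctrl., 75.1 and 72.8 for cal. res., and 79.7 and 88.9 for CORT. Cal. res. lay 10.3 below CORT (p = 0.333, exact permutation test), and the differences from ctrl. were -3.50 for cal. res. and 6.82 for CORT (p = 1 for both, exact permutation test), well within the spread of the ctrl. libraries. With lists of equal size cal. res. lay 0.787 below CORT (p = 1, exact permutation test), and the difference from ctrl. was -5.15 for cal. res. (p = 1, exact permutation test) and turned to -4.36 for CORT (p = 0.667, exact permutation test). Against the ctrl. library of the same name style, over the sites shared by the libraries left, the difference was 8.34 for cal. res. and -5.83 for CORT. Over the 8095 sites of the whole genome the means were 80.7 and 57.8 for ctrl., 69.4 and 65.2 for cal. res., and 76.5 and 82.2 for CORT, the same order as at the member sites but for CORT replicate 2, which stood above ctrl. replicate 1.

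**Figure D5:**
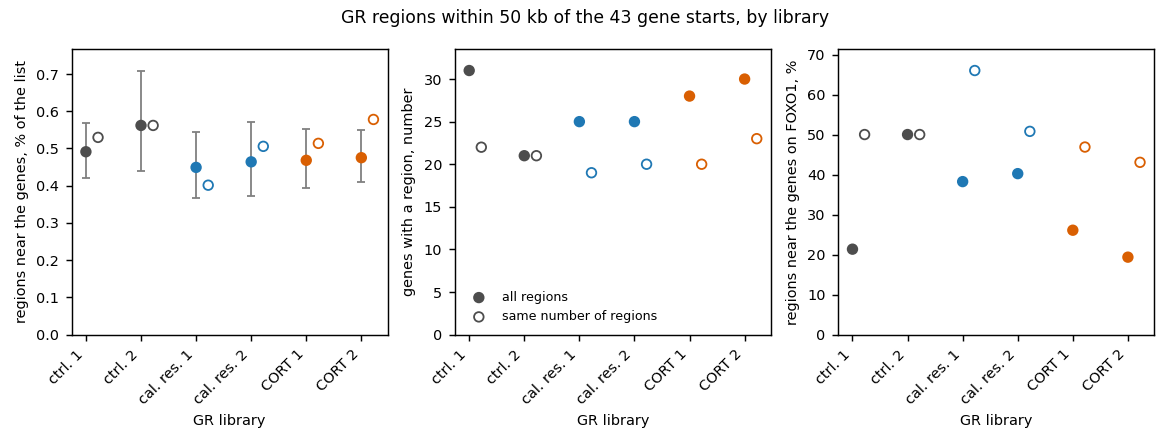
GR regions within 50 kb of the 43 gene starts in each library (columns): left, percent of the list, with exact 95% intervals on the filled points; middle, number of members with a region; right, percent of these regions on a FOXO1 row. Filled points use all regions and open points the same number per library. The 2 ctrl. libraries are farther apart than those of the other groups in the filled points of all 3 panels, and meet at 50% in the open points on the right.

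As the other genes of the pathway, 18 amino acid carriers outside the 6 families were counted, out of 19 listed by role. A site held by ctrl. was found at 13 (72.2%, against 48.6% of all protein-coding genes), by cal. res. at 13 (72.2%, against 47.2%), by CORT at 18 (100%, against 60.9%) and by all 3 groups at 11 (61.1%, against 37.9%), and 11 had a FOXO1 row (61.1%, against 33.3%). All 18 had at least 1 GR site, against 73.2% of all protein-coding genes. Cal. res. held more sites than ctrl. at 10 of the 18, fewer at 3 and as many at 5, and with lists of equal size more at 5, fewer at 3 and as many at 10. The most sites, 26, were at the mitochondrial glutamate carrier Slc25a22, with 6 held by ctrl., 7 by cal. res. and 12 by CORT. Only 2 of the 26 were nearest to its own start, and with lists of equal size the held counts were 5, 6 and 4. Examples in each direction, chosen after their values were seen, were the mitochondrial aspartate and glutamate carrier Slc25a13 with 4, 10 and 10 held and the glycine carrier Slc6a9 with 5, 2 and 7. On an equal footing these were 4, 7 and 6 at Slc25a13 and 2, 2 and 5 at Slc6a9. Cal. res. and ctrl. were then equal at Slc6a9.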

How the data were processed

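Groups were taken from the sample titles. According to the study's methods, the authors aligned reads to mm10 with BWA, removed duplicates and reads of low mapping quality (28 or less) with Picard and Bamtools, called peaks with MACS2 (GR per library at q 0.1, FOXO1 on merged reads at q 1e-05) and removed blacklisted regions; use of an input control is not given in the sources used here. In the deposited lists, fold enrichment is a ratio to the local background of that library, and each p-value and q-value stands as -log10. Fold enrichment was ranked within each list. Rows with the same start and end were reduced to 1 region, and regions of the 6 GR lists sharing at least 1 bp were merged into sites. Coordinates were compared with the reference, in which no peak ended beyond a chromosome. Values in every library were given for the leading site of each family and for sites held by CORT without a ctrl. peak (6 nearest to a start). Such cal. res. sites were looked for too. Up to 12 FOXO1 sites by mean rank and 14 genes taken for their role in the liver were also picked. For these, the text gives values in every library for some only, and ranges, counts or no values for the others. The members, lists and tests were chosen with earlier results of these data known. Tests were exact permutation tests over libraries, and their smallest p-values were checked on made-up values. The merging and holding of sites were checked on simulated peak lists. The p-values compare group means over relabelled libraries and rest on 2 libraries per group. Software comprised pandas 2.3.3, NumPy 2.4.6, SciPy 1.17.1 and pysam 0.24.0 under Python 3.11.15.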

Additional observations from a re-analysis of the deposited data

How the results depend on the processing

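Of the 319 alternative values computed, 247 were labelled unchanged. For this a difference had to keep its direction, and a count to stay within 1.5 times the reported one. A motif share had to stay within the exact interval of the reported share. The 247 include values that could not change, so they overstate how far the results held. Among these are differences with the replicate number as a block or with crossed pairs. Others are differences in share, member genes or FOXO1 overlap between groups that kept both libraries. No alternative could carry a difference between groups past p = 0.05, because the smallest p of the exact permutation test is 0.333. A site is called gained here where a group held it and ctrl. did not. Counts of sites follow the window and the list size. At q of at most 0.01 the difference in member genes between cal. res. and ctrl. was 0. At q of at most 1e-05, 32 sites were held by ctrl., 29 by all 3 groups and 5 by CORT with no ctrl. peak, and the share of regions was higher in cal. res. than in CORT by 0.00287 points. With the same number of regions per library, CORT minus ctrl. was 0 in share, 0 in member genes and -4.36 in mean percentile, CORT held 53 sites, the gained sites numbered 4 for cal. res. and 12 for CORT, 1 and 3 of them with no ctrl. peak, and both CORT percentiles lay above ctrl. at 4 sites and below at 9, so that the direction of the CORT ranks against ctrl. turned. Within 20 kb, 29, 30 and 52 sites were held by ctrl., cal. res. and CORT and 25 by all, gains numbered 4 for cal. res. and 24 for CORT, 5 of these with no ctrl. peak; 22 FOXO1 rows remained in the window, 18 of them on a site held by cal. res. Within 100 kb the counts were 117, 118, 202 and 84 held, 29 and 96 gained, 2 and 19 with no ctrl. peak, and 76 FOXO1 rows at 26 members, 62 on a site held by cal. res. By nearest gene start they were 39, 41 and 62 held, 7 and 25 gained and 6 in CORT with no ctrl. peak, and cal. res. exceeded CORT in share by 0.00852 points. When a peak in either library was enough, 170, 100 and 197 sites were held, 91 by all, 5 were gained in cal. res., all 5 with no ctrl. peak, and 62 in CORT. The stronger 50% of the FOXO1 rows left 27 rows. In 100 bp windows the GR core AGAACA was found at 12.8%, FOX letters at 4.26% and C/EBP letters at 11.5% of member sites, as a shorter window must lower them.

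Leaving out 1 library at a time moved the results that rest on ctrl., and replicates 1 and 2 of ctrl. pulled in opposite directions. The difference in member genes from ctrl. ran from -6 to 4 for cal. res. and from -2 to 8 for CORT, that in FOXO1 overlap from -10.8 to 17.9 and from -27.3 to 1.37 points, and that in mean percentile from -18.1 to 8.34 and from -5.83 to 19.1. A group left with 1 library holds every site at which that library has a peak, so its held and gained counts then follow from that relaxed rule. Without ctrl. replicate 1, the gained sites with no ctrl. peak numbered 14 for cal. res. and 53 for CORT. Without ctrl. replicate 2, ctrl. held 170 sites, none was gained in cal. res. (0) and 11 were gained in CORT. Without a cal. res. library, 23 or 34 sites were gained in cal. res., 3 or 2 of them with no ctrl. peak. Without CORT replicate 1, CORT held 180 sites and gained 122, 53 with no ctrl. peak, and without CORT replicate 2 it gained 23 with no ctrl. peak. Sites held by ctrl. thus ran from 59 to 170, sites held by CORT from 106 to 180, sites gained in cal. res. from 0 to 34 and in CORT from 11 to 122, and those with no ctrl. peak from 0 to 14 and from 11 to 53.

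For same-numbered libraries of different groups, the correlation of their deviations over the 45 shared sites was 0.166 between cal. res. and ctrl. and 0.0643 between cal. res. and CORT. Between CORT and ctrl. it was -0.321, so these deviations ran in opposite directions. With the replicate number as a block, the difference in share from ctrl. was by construction the same, -0.07 points for cal. res. and -0.05 for CORT. The mean of the paired differences equals the difference of the means, so the block could not move it. No call was possible either, since an exact permutation test of 2 pairs cannot go below p = 0.5. A crossed pairing of CORT and ctrl., added after the data were seen, could likewise neither move the difference in mean percentile nor give a call.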
